A study of Mus musculus with 8 samples.

Results

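The MYC and MAX network is a family of transcription factors that share a basic helix-loop-helix leucine zipper, the part with which they pair and contact DNA. The 10 genes described here were taken by name: the MYC paralogs Myc, Mycn and Mycl, their common partner Max, the repressors Mxd1, Mxd3, Mxd4, Mxi1 and Mnt, and Mlx. All 10 were among the 32728 genes of the count table and all passed the filter on low counts. The RNA came from colon cancer organoids of C57BL/6 mice, self-organising epithelial cultures in which Apc, Trp53 (p53) and Smad4 had been knocked out with CRISPR in every group. The 4 groups, with 2 libraries each, were line apsMC706 (labelled female) and line CTO19 (labelled male), each grown either for 3 days in EM, which contains EGF, noggin, galunisertib and B27, or in noEGF, the same medium lacking EGF from the start, for 7 days. Noggin blocks BMP ligands and galunisertib blocks the TGF-beta receptor, so both were present with and without EGF. Effects of medium and of culture time cannot be told apart, nor can those of line and labelled sex. The labels do not say whether the 2 libraries of a group came from separate cultures, so p-values measure the spread between these libraries, which may be technical.

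MYC, MYCN and MYCL drive growth and division when paired with MAX, and the pair binds the E-box, a short DNA element found near many genes of ribosome, nucleotide and polyamine synthesis. MXD1, MXD3, MXD4, MXI1 and MNT compete for MAX, bind the same element and recruit SIN3 and histone deacetylases to lower transcription. MLX pairs with the glucose sensors MondoA (Mlxip) and ChREBP (Mlxipl) and with some of the MXD proteins and MNT. In the intestine Myc is a target of Wnt signalling, which the loss of Apc leaves switched on, and growth factor signals through ERK are known to raise MYC protein stability.

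The libraries held 35650262 to 38953838 counts. Levels below are counts per 1e6 counts of a TMM-scaled library (CPM), and a count of 0 allows up to 3 counts, or 0.0770 to 0.0842 CPM of the library total. Mitochondrial transcripts made up 2.94% to 3.68% of the EM counts and 4.13% to 5.19% of the noEGF counts. The summed level of 9 epithelial markers was 3032 to 3902 CPM. That of 8 fibroblast markers was 25.9 and 27.4 CPM in apsMC706 EM, 56.5 and 54.3 in apsMC706 noEGF, 134 and 107 in CTO19 EM, and 454 and 541 in CTO19 noEGF, of which Fn1, also made by epithelial cells, held most (mean 486 CPM in CTO19 noEGF), and the part of these markers in the results below was not tested. Of the others, Dcn went from a mean of 0.100 to 9.90 CPM in CTO19 and Col3a1 from 3.85 to 7.84 CPM in apsMC706 (EM to noEGF), Pdgfra and Col1a1 had group means of 0.0264 to 1.24 CPM, and Col1a2, Lum and Thy1 had means of 0 to 0.0426 CPM. In all 8 immune markers summed to 1.46 to 8.24 CPM, and Des was the marker with no count in any library. Cdx2, an intestinal transcription factor, was at 9.32 and 10.1 CPM in apsMC706 and 2.05 and 1.10 in CTO19 (EM and noEGF means). RNA of the targeted genes was present and differed between the lines (means in EM and noEGF). Apc was at 195 and 178 CPM in apsMC706 and 64.3 and 78.1 in CTO19. Trp53 was at 14.7 and 15.2 CPM in apsMC706 and 30.8 and 29.7 in CTO19. Smad4 was at 34.0 and 39.4 CPM in apsMC706 and 11.8 and 18.6 in CTO19. These levels do not check small CRISPR changes.

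The E-box of the MAX dimers reads CACGTG, the same on both strands. It was searched in RefSeq promoters of the GRCm38.p6 build, from 250 bases before to 50 after each start site. Of the 10 genes 9 had an entry, all but Myc. The E-box lay in a promoter of 4 of these 9 genes, and of 8.09% of all 27025 genes with an entry (7.15% of the 32851 promoters). The 4 stretches are shown because they belong to genes of 3 roles, the shared partner, repressors and MLX. They are printed 5′ to 3′ on the gene's strand, with the E-box in capitals:
Max, chr12:76962234-76962263, minus strand: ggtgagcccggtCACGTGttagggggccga
Mxd4, chr5:34187912-34187941, minus strand: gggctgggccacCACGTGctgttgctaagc
Mnt, chr11:74830789-74830818, plus strand: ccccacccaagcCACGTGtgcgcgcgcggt
Mlx, chr11:101087238-101087267, plus strand: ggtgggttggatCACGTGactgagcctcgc
The element began 3 bases before the RefSeq start site of Max, 219 before that of Mxd4, 123 before that of Mnt and 40 before that of Mlx. The variant CACGCG or its reverse complement, which lay in a promoter of 10.5% of all genes, was found in that of Mycl alone among the 9 genes, 20 bases before its start site:
Mycl, chr4:122995899-122995928, plus strand: ccaagccccgggCACGCGacgagatataaa
Of the 4 genes with CACGTG, Mxd4 and Mnt rose without EGF in both lines and Max and Mlx fell, as given below. The Mycl start site used (122995931) lies inside the gene as annotated, which begins at 122995652. For Mycl and Max, a stretch of bases just after the start site used was not found in an annotated transcript of the gene. A match is a description of the letters and not evidence of binding.

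The comparison of noEGF at 7 days with EM at 3 days asked how the network differed when medium and culture time changed together. Of the 5 repressors, Mxd1, Mxd4, Mxi1 and Mnt rose in both lines and Mxd3 did not, while Myc moved in opposite directions. Within the lines, 5 of the 10 genes rose in both (Mycl, Mxd1, Mxd4, Mxi1 and Mnt; 17.1% of all tested genes did so) and Max and Mlx fell in both (18.5% of all genes). Myc was the 1 gene called in opposite directions (13.3% of all genes), Mxd3 passed the threshold in apsMC706 but not in CTO19 (37.5% of all genes passed in 1 line), and Mycn passed in neither. Over both lines 7 genes passed an adjusted p of 0.05, 5 higher and 2 lower, beside 48.8% of all 16719 genes tested (25.5% higher, 23.3% lower). In apsMC706 9 genes passed, 6 higher and 3 lower (67.2% of all genes, 34.1% higher and 33.1% lower). In CTO19 8 passed, 5 higher and 3 lower (68.0%, 34.7% higher and 33.3% lower). The share of members called is thus read against a background in which most genes of a line passed. Libraries that do not overlap, as given for members below, are also common. The libraries of the 2 media lay apart for 83.7% of tested genes in apsMC706 and 83.1% in CTO19. Those of the 2 lines lay apart for 84.7% of tested genes in EM and 90.6% in noEGF.

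**Figure D1:**
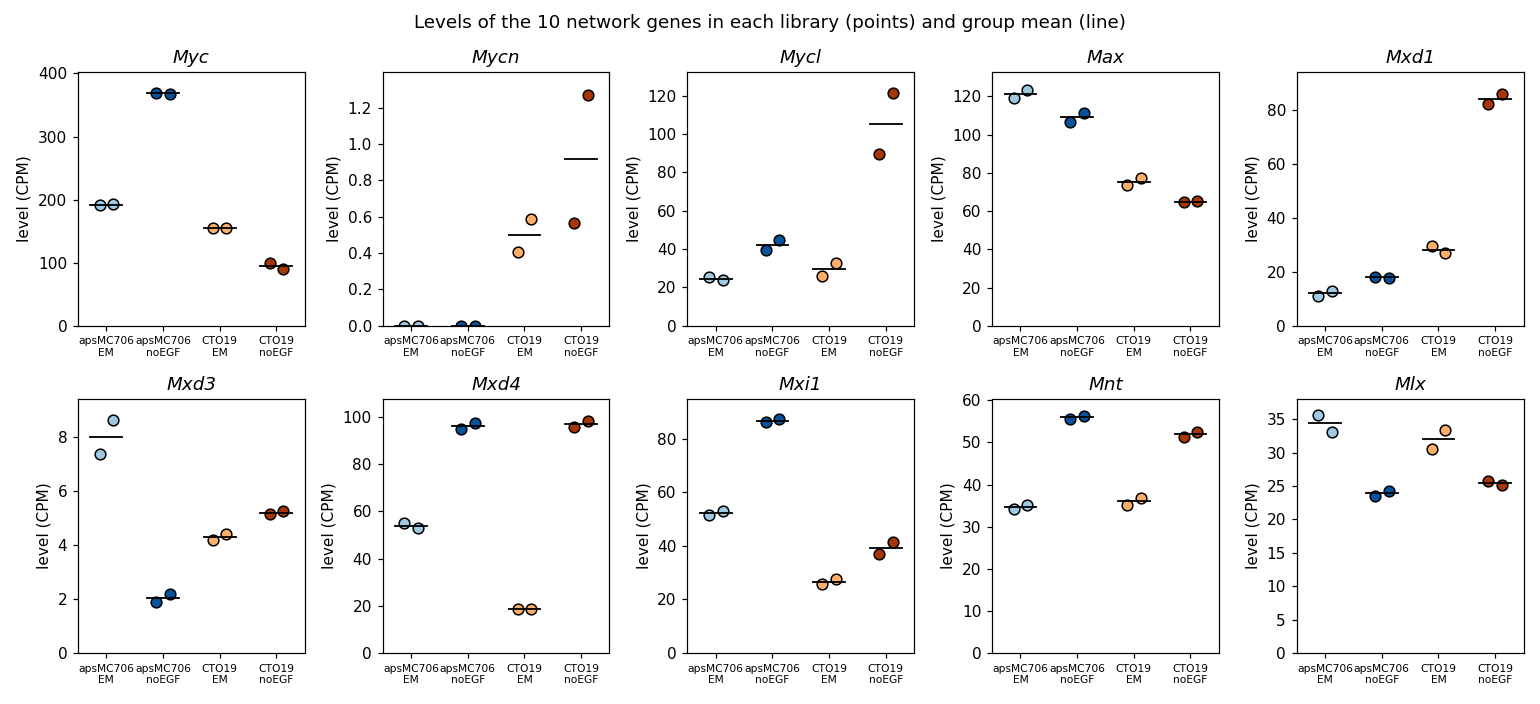
Level of each of the 10 network genes in CPM (y axis, linear, from 0) in the 8 libraries (points) of the 4 groups (x axis), with the group mean as a line. Myc is higher without EGF in apsMC706 and lower in CTO19, and Mycn is at 0 counts in every apsMC706 library.

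Myc encodes the paralog that most dividing cells use (ENSMUSG00000022346, chromosome 15, 61985391 to 61990374 on the plus strand of mm10). The EM libraries of apsMC706 held 191 and 193 CPM, and its noEGF libraries 369 and 368 CPM. The EM libraries of CTO19 held 156 and 154 CPM, and its noEGF libraries 99.5 and 90.2 CPM. The 4 groups did not overlap, and the highest and the lowest were the noEGF groups of the 2 lines. Myc was 1.92-fold higher without EGF in apsMC706 (log2 fold change 0.94, SE 0.0436, edgeR quasi-likelihood adjusted p = 8.37e-11) and 1.63-fold lower in CTO19 (-0.71, SE 0.0451, adjusted p = 4.19e-09). The responses differed by -1.65 on the log2 scale (CTO19 minus apsMC706, SE 0.0627, adjusted p = 5.93e-11), a difference that ran from -1.80 to -1.63 over the libraries left out in turn. The model over both lines, which averages the responses, put Myc at 0.12 (log2 scale, SE 0.321, adjusted p = 0.783), and its sign turned without any 1 of the 4 apsMC706 libraries (-0.11 to -0.01).

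Mycl, first known from lung cancer, rose in both lines (ENSMUSG00000028654, chromosome 4, 122995652 to 123002485, plus strand). Its level was 25.5 and 23.8 CPM in apsMC706 EM, 39.5 and 44.9 in apsMC706 noEGF, 26.2 and 32.9 in CTO19 EM, and 89.4 and 121 in CTO19 noEGF. The noEGF libraries lay above the EM libraries of their line, and the CTO19 noEGF libraries were the highest and the most spread. Mycl was 2.48-fold higher over both lines (1.31 on the log2 scale, SE 0.235, edgeR adjusted p = 0.00352). The rise was 1.71-fold in apsMC706 (adjusted p = 0.0268) and 3.56-fold in CTO19 (adjusted p = 0.00089). Its responses differed by 1.06 (SE 0.293, adjusted p = 0.0336). That call was lost without either library of apsMC706 EM (0.0934 and 0.0739), apsMC706 noEGF (0.079 and 0.0509) or CTO19 EM (0.126 and 0.068), within a range of 0.0013 to 0.189 over all alternatives. The apsMC706 call was lost without either library of apsMC706 EM (0.0821 and 0.106) or CTO19 EM (0.0576 and 0.0581) or without apsMC706 noEGF replicate 2 (0.0944), within 9.66e-05 to 0.272 over the alternatives.

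Mycn, the paralog of neural tumours and early development, was nearly silent (ENSMUSG00000037169, chromosome 12, 12936093 to 12941914, minus strand). It had 0 counts in all 4 apsMC706 libraries, 14 and 21 counts in CTO19 EM and 21 and 51 counts in CTO19 noEGF. This gave CTO19 levels of 0.405 and 0.590 CPM with EGF and of 0.565 and 1.27 CPM without it, and the media overlapped. Against a floor of 3 counts per apsMC706 library, the CTO19 mean was at least 6.18-fold higher in EM and at least 11.4-fold higher in noEGF. From the lower CTO19 library alone the bounds were 5.03-fold in EM and 7.02-fold in noEGF. Its response in CTO19 did not pass (log2 fold change 0.89, SE 0.430, edgeR adjusted p = 0.0933). It did with no filter on low counts (0.0294), with the replicate number as a block (0.0318) and without CTO19 noEGF replicate 1 (0.00331), and the range over the alternatives was 0.00331 to 0.741.

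Max, the partner that every MYC protein and most repressors of the network need, changed little (ENSMUSG00000059436, chromosome 12, 76937269 to 76962201, minus strand). It was at 119 and 124 CPM in apsMC706 EM, 107 and 111 in apsMC706 noEGF, 73.6 and 77.1 in CTO19 EM, and 64.5 and 65.3 in CTO19 noEGF. The noEGF libraries lay below the EM libraries of their line, and all CTO19 libraries lay below all apsMC706 libraries. Max was 1.14-fold lower over both lines (log2 fold change -0.18, SE 0.0486, edgeR adjusted p = 0.0169), 1.11-fold lower in apsMC706 (adjusted p = 0.00537) and 1.16-fold lower in CTO19 (adjusted p = 0.000627). The call over both lines was lost without apsMC706 EM replicate 2 (0.0515), apsMC706 noEGF replicate 1 (0.0509) or either CTO19 noEGF library (0.168 and 0.157), within 0.0116 to 1 over the alternatives. So small a change depended on the scaling. With DESeq2 size factors the apsMC706 value was -0.10 (adjusted p = 0.0627), with no filter -0.09 (0.119), and over all alternatives it ran from -0.20 to -0.07, always below 0 (adjusted p 0.000818 to 1). The responses of the lines did not differ by the test (-0.06, SE 0.0621, adjusted p = 0.425).

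Among the repressors, Mxd4 had the largest change and Mxd1 the next in CTO19. Mxd4 (ENSMUSG00000037235, chromosome 5, 34173883 to 34187720, minus strand), a factor of resting and differentiated cells, was at 55.0 and 52.8 CPM in apsMC706 EM and 94.9 and 97.3 in apsMC706 noEGF. The CTO19 libraries held 18.7 and 18.6 CPM with EGF and 95.6 and 98.3 CPM without. The lines were apart in EM and overlapped in noEGF. Mxd4 rose 5.20-fold in CTO19 (log2 fold change 2.38, SE 0.0489, edgeR adjusted p = 1.9e-13) and 1.78-fold in apsMC706 (0.84, SE 0.0436, adjusted p = 3.06e-10), and the responses differed by 1.54 (SE 0.0656, adjusted p = 1.74e-10). Over both lines it was 3.02-fold higher (adjusted p = 0.00441). Mxd4 shares 514 of 8483 exon bases with Gm42846 on the other strand, which has no entry in the count table. The part of reads there was not tested.

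Mxd1, the first known MAX partner that opposes MYC (ENSMUSG00000001156, chromosome 6, 86647042 to 86669161, minus strand), was at 11.1 and 13.0 CPM in apsMC706 EM and 18.0 and 17.9 in apsMC706 noEGF. The CTO19 libraries held 29.5 and 26.9 CPM with EGF and 82.2 and 86.1 CPM without. None of the 4 groups overlapped, with both CTO19 groups above both apsMC706 groups. The rise was 1.49-fold in apsMC706 (edgeR adjusted p = 1.23e-05) and 2.99-fold in CTO19 (adjusted p = 4.04e-11), and the responses differed by 1.00 (SE 0.102, adjusted p = 9.66e-07). The rise over both lines was 2.13-fold (1.09 on the log2 scale, SE 0.203, adjusted p = 0.00413).

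Mxi1 and Mnt rose by like amounts in the lines. Mxi1, a repressor near MXD1 in structure (ENSMUSG00000025025, chromosome 19, 53310518 to 53375810, plus strand), was at 51.4 and 53.2 CPM in apsMC706 EM, 86.2 and 87.2 in apsMC706 noEGF, 25.6 and 27.7 in CTO19 EM, and 37.1 and 41.5 in CTO19 noEGF. Mnt, a broadly made repressor (ENSMUSG00000000282, chromosome 11, 74830920 to 74845725, plus strand), was at 34.3 and 35.2 CPM in apsMC706 EM, 55.6 and 56.3 in apsMC706 noEGF, 35.1 and 36.9 in CTO19 EM, and 51.3 and 52.5 in CTO19 noEGF. For both genes the noEGF libraries lay above the EM libraries of their line. Mxi1 shares 194 of 6823 exon bases with Gm10197 on the other strand, which has no entry in the count table. The part of reads there was not tested. Over both lines Mxi1 was 1.57-fold higher (log2 fold change 0.65, SE 0.0664, edgeR adjusted p = 0.000344) and Mnt 1.52-fold higher (0.61, SE 0.0569, adjusted p = 0.000256). The difference of the responses was -0.17 for Mxi1 (SE 0.0818, adjusted p = 0.0971) and -0.16 for Mnt (SE 0.0676, adjusted p = 0.0586). It passed for both with DESeq2 size factors (0.0365 and 0.0165) and with no filter (0.00298 and 0.00465), within 0.00136 to 1 for Mxi1 and 0.00465 to 1 for Mnt over the alternatives.

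Mxd3 was the repressor that fell in apsMC706. MXD3 is known from dividing cells, unlike the other MXD proteins, and its gene (ENSMUSG00000021485, chromosome 13, 55325168 to 55329823, minus strand) was at 7.38 and 8.63 CPM in apsMC706 EM and 1.88 and 2.19 in apsMC706 noEGF. The CTO19 libraries held 4.20 and 4.41 CPM with EGF and 5.14 and 5.27 CPM without. The libraries of each line lay apart by medium, lower without EGF in apsMC706 and higher in CTO19. Mxd3 was 3.92-fold lower in apsMC706 (log2 fold change -1.97, SE 0.136, edgeR adjusted p = 6.74e-09), and its value in CTO19 (0.27, SE 0.128) did not pass (adjusted p = 0.0712). The responses differed by 2.24 (SE 0.188, adjusted p = 1.29e-07). Of its 2369 exon bases, 105 are shared with Prelid1 on the other strand, whose mean level was 296 CPM in EM and 186 in noEGF for apsMC706, and 293 and 192 for CTO19. The library kit does not mark strand, so reads there cannot be assigned with certainty, and their part in these values was not tested.

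Mlx fell by a small amount in both lines (ENSMUSG00000017801, chromosome 11, 101087277 to 101092207, plus strand). It was at 35.6 and 33.2 CPM in apsMC706 EM, 23.5 and 24.3 in apsMC706 noEGF, 30.6 and 33.4 in CTO19 EM, and 25.8 and 25.2 in CTO19 noEGF. The noEGF libraries lay below the EM libraries in each line. Mlx was 1.34-fold lower over both lines (log2 fold change -0.43, SE 0.0692, edgeR adjusted p = 0.00221), and the difference of the responses did not pass (0.20, SE 0.0861, adjusted p = 0.0654). It shares 385 of 1999 exon bases with Psmc3ip on the other strand, whose mean was 12.6 CPM in EM and 5.69 in noEGF for apsMC706, and 9.36 and 7.04 for CTO19. The part of those reads in the fall of Mlx was not tested.

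**Figure D2:**
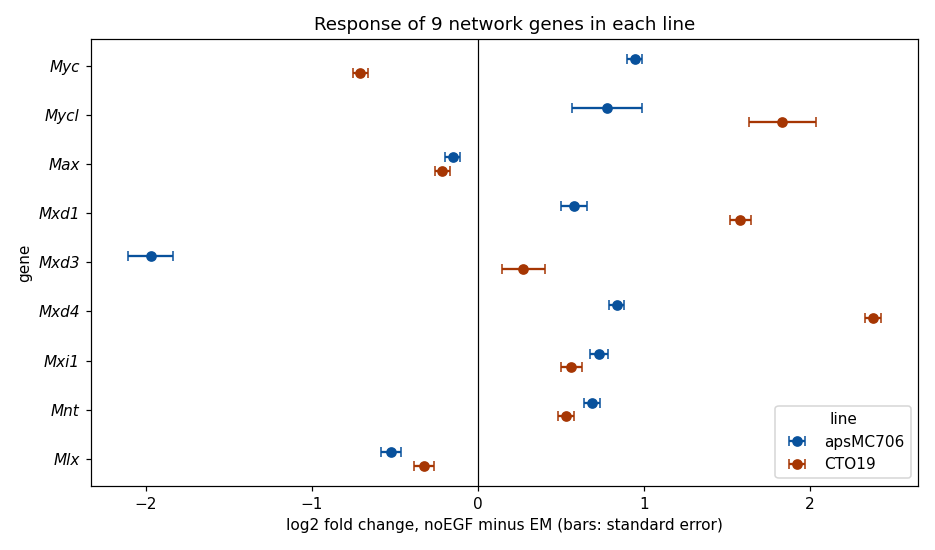
Log2 fold change of noEGF minus EM (x axis) for 9 network genes (y axis) in apsMC706 and CTO19, with the standard error as bars. Mycn is left out because apsMC706 had no counts. Myc lies at 0.94 and -0.71, on opposite sides of 0, and Mxd4 at 0.84 and 2.38.

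In these bulk libraries, fewer cells that express a gene and less RNA per cell cannot be told apart. Tested between the lines, the responses differed for 5 of the 10 genes (56.0% of all genes), with 4 higher in CTO19 (Mycl, Mxd1, Mxd3 and Mxd4; 30.4% of all genes) and Myc lower (25.6%). With DESeq2 size factors 4 were higher and 3 lower, since Mxi1 and Mnt then passed, and with no filter on low counts 3 and 3, Mycl no longer passing.

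Levels of different genes are compared per kilobase of merged exon. The order in EM was led by Myc, Max and Mlx in both lines. In apsMC706 EM, Myc stood at 70.6 ± 0.386 CPM per kb (SD, n = 2 libraries), Max at 33.7 ± 0.897 and Mlx at 17.2 ± 0.863. Below them came Mxi1 (7.66) and Mnt (7.51), which overlapped, Mxd4 (6.35) and Mycl (6.09), which overlapped, Mxd3 (3.38), Mxd1 (1.71) and Mycn (0). In CTO19 EM, Myc stood at 57.0 ± 0.335, Max at 20.9 ± 0.696 and Mlx at 16.0 ± 0.964 CPM per kb, followed by Mnt (7.78) and Mycl (7.32), which overlapped, Mxd1 (3.98) and Mxi1 (3.91), which overlapped, Mxd4 (2.20), Mxd3 (1.82) and Mycn (0.151).

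Without EGF the order changed in CTO19. Mycl moved next to Myc, at 26.1 ± 5.57 CPM per kb against 34.9 ± 2.41, and their libraries did not overlap. Max followed at 18.0, Mlx at 12.8, Mxd1 at 11.9, Mxd4 at 11.4 and Mnt at 11.2, the last pair overlapping, then Mxi1 at 5.76, Mxd3 at 2.20 and Mycn at 0.278. In apsMC706 noEGF Myc stood at 136 ± 0.348 and Max at 30.3 ± 0.903 CPM per kb, ahead of Mxi1 (12.7), Mnt (12.1) and Mlx (11.96), of which the last pair overlapped, Mxd4 (11.3), Mycl (10.4), Mxd1 (2.54), Mxd3 (0.860) and Mycn (0). Merged exons take in every annotated isoform, so a gene with long rare isoforms appears lower per kb.

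As a share of the summed CPM per kb of the 10 genes, the MYC paralogs took 49.9% and 49.6% in apsMC706 EM and 64.4% and 63.8% in apsMC706 noEGF. In CTO19 they took 53.6% and 52.9% in EM and 44.9% and 46.2% in noEGF. The 5 repressors took 17.0% and 17.5% in apsMC706 EM and 17.3% and 17.4% in apsMC706 noEGF, but 16.4% and 16.1% in CTO19 EM and 31.7% and 31.5% in CTO19 noEGF. The paralogs rose in share in apsMC706 and the repressors in CTO19. The ratio of the summed levels of paralogs to repressors was 2.93 and 2.83 in apsMC706 EM, 3.72 and 3.67 in apsMC706 noEGF, 3.28 in both CTO19 EM libraries, and 1.42 and 1.46 in CTO19 noEGF. These shares describe RNA, and no test was made on them.

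**Figure D3:**
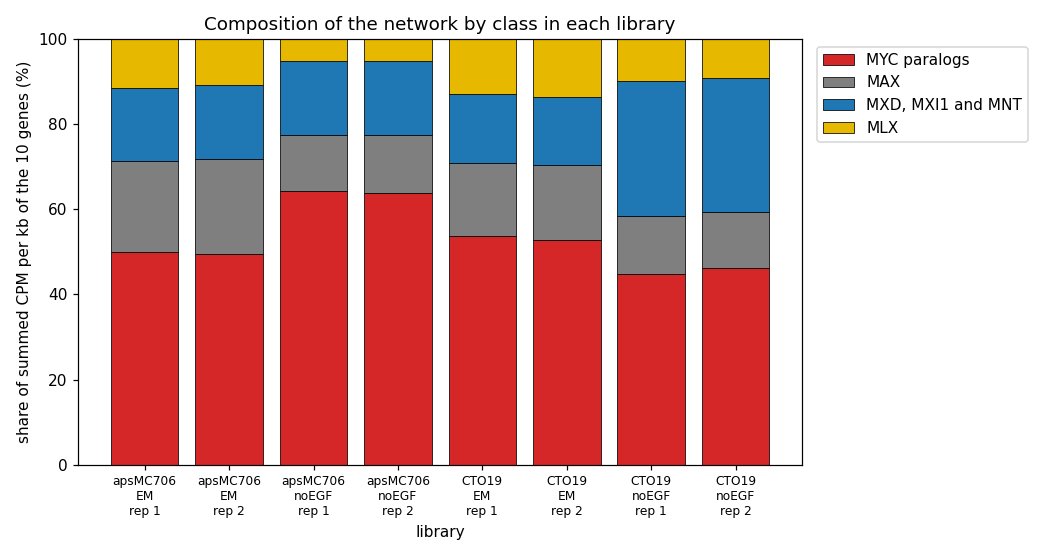
Share of the summed CPM per kb of the 10 network genes (y axis, in %) taken by the MYC paralogs, Max, the repressors (Mxd1, Mxd3, Mxd4, Mxi1 and Mnt) and Mlx in each of the 8 libraries (x axis). The repressors hold 31.7% and 31.5% in CTO19 noEGF and 16.1% to 17.5% in the other 6 libraries.

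The lines were also compared in each medium. In EM, 7 of the 10 genes differed (71.3% of all genes), 2 higher and 5 lower in CTO19 (37.5% and 33.8% of all genes). Mxd1 was 2.34-fold higher, and the CTO19 mean of Mycn was at least 6.18-fold higher, as given above. Mxd4 was 2.89-fold, Mxi1 1.96-fold, Mxd3 1.86-fold, Max 1.61-fold and Myc 1.24-fold lower (edgeR adjusted p = 1.67e-05 for Myc). Mycl, Mnt and Mlx did not pass, with log2 differences of 0.27, 0.05 and -0.10. In noEGF, 8 differed (80.0% of all genes), 4 higher and 4 lower in CTO19 (45.7% and 34.3% of all genes). Myc was then 3.89-fold lower in CTO19 (log2 difference -1.96, SE 0.0454, edgeR adjusted p = 1.28e-14), Mxd1 4.68-fold higher, Mxd3 2.55-fold higher and Mycl 2.50-fold higher. Mxi1 was 2.20-fold and Max 1.68-fold lower. Mxd4 stood at 0.01 (SE 0.0421, adjusted p = 0.788). Mnt was 1.08-fold lower (adjusted p = 0.044), a call lost without any 1 apsMC706 library (0.0692 to 0.187) within 0.00041 to 1 over the alternatives. The median of all genes in this comparison was 0.13, so small values here depend on the scaling.

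The rest of the network and its regulators were read from lists chosen by role, with earlier results of these data known. The counts of these and the target lists beside the shares of all genes are therefore descriptions and not independent tests. Of 5 further network genes, Mlxip, Mlxipl, Mga and Bmyc were tested and none passed over both lines. Mga, a large MAX partner that also carries a T-box, was at 55.6 and 57.7 CPM in apsMC706 EM, 83.8 and 81.5 in apsMC706 noEGF, 82.6 and 63.0 in CTO19 EM, and 66.6 and 63.6 in CTO19 noEGF. It rose in apsMC706 (log2 fold change 0.55, edgeR adjusted p = 0.00724) and not in CTO19 (-0.16, adjusted p = 0.281), where the EM libraries were far apart. Without CTO19 EM replicate 1 its value over both lines passed (0.34, adjusted p = 0.0487). Mlxipl, at group means of 0.469 to 1.29 CPM, rose 2.15-fold in CTO19 (adjusted p = 0.00384) and did not pass in apsMC706 (log2 fold change -0.19), and the difference of the responses passed (adjusted p = 0.028). Mlxip, from 73.1 to 59.0 CPM, was 1.24-fold lower in apsMC706 (adjusted p = 0.000574) and did not pass in CTO19. Bmyc, a rodent relative of Myc, had no count in apsMC706 and was at least 11.1-fold higher in CTO19 EM and at least 10.5-fold higher in CTO19 noEGF. Mlxip and Bmyc are named after their values were seen.

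Of the cofactors that MYC recruits, 7 of 20 fell over both lines and none rose (median log2 fold change -0.06, all genes 0.03), where 23.3% of all genes fell and 25.5% rose. Ruvbl1 and Ruvbl2, helicase-like subunits of the TIP60 and INO80 complexes, were 2.01-fold and 1.57-fold lower (edgeR adjusted p = 9.91e-05 and 0.000164), Wdr5, which helps MYC onto chromatin, was 1.30-fold lower, and the acetyltransferase gene Kat2a 1.39-fold lower. Within the lines 11 fell in apsMC706 and none rose, where 33.1% of all genes fell, and 6 fell and 6 rose in CTO19, below the shares of all genes (33.3% and 34.7%). Of 16 genes of the SIN3 and NCOR corepressors that the MXD proteins and MNT use, 4 fell and none rose over both lines (median -0.18), a share of lower calls near that of all genes (23.3%). In apsMC706 11 fell and 1 rose (33.1% and 34.1% of all genes). In CTO19 4 fell and 4 rose, below the shares of all genes (33.3% and 34.7%). The 4 over both lines were Sap30 (1.46-fold lower), Rbbp7 (1.48-fold), Ing1 (1.28-fold) and Sap18 (1.15-fold, adjusted p = 0.038). The call on Sap18 was lost without any library other than CTO19 EM replicate 1 (0.0675 to 0.111), with the replicate number as a block (0.0618) and with DESeq2 size factors (0.0506).

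Genes of MYC protein turnover moved both ways, with 7 higher and 11 lower of 25 tested (median -0.16), beside 25.5% and 23.3% of all genes, so that the number of higher calls was near the background. Fbxo32, a ubiquitin ligase of protein breakdown that is reported to act on MYC, was at 3.33 and 3.65 CPM in apsMC706 EM, 19.3 and 21.2 in apsMC706 noEGF, 6.14 and 5.14 in CTO19 EM, and 24.3 and 30.6 in CTO19 noEGF (log2 fold change 2.41, SE 0.119, edgeR adjusted p = 4.05e-05). Pim1, a kinase that phosphorylates MYC, was 3.07-fold higher, Usp22 1.52-fold and Btrc 1.41-fold higher. The mitotic kinases Plk1 and Aurka, each able to shield MYC proteins from breakdown, were 2.50-fold and 2.24-fold lower, and Set, an inhibitor of the phosphatase PP2A, was 1.72-fold lower.

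Of 24 genes that act on Myc transcription or its mRNA, 7 rose and 9 fell over both lines (median -0.12), beside 25.5% and 23.3% of all genes. Zfp36l1 and Zfp36, whose proteins promote decay of AU-rich mRNAs, were 1.92-fold and 1.60-fold higher, and Bcl9, a cofactor of beta-catenin, was 1.52-fold higher. Stat3 was 1.28-fold higher. Igf2bp1, which protects Myc mRNA from decay, was at 33.0 and 32.9 CPM in apsMC706 EM, 17.3 and 16.9 in apsMC706 noEGF, 10.1 and 8.88 in CTO19 EM, and 4.49 and 3.23 in CTO19 noEGF (2.16-fold lower, edgeR adjusted p = 0.000534). Cnbp, Fubp1 and Elavl1 were 1.35-fold, 1.32-fold and 1.30-fold lower.

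Known MYC-induced targets fell in both lines, also in apsMC706 where Myc RNA rose. Over both lines 48 of 60 fell and 1 rose (median log2 fold change -0.59, all genes 0.03). Of all genes, 23.3% fell and 25.5% rose. In apsMC706 49 fell and 6 rose (median -0.53, all genes 0.00), beside 33.1% and 34.1% of all genes. In CTO19 56 fell and 2 rose (median -0.74, all genes 0.02), beside 33.3% and 34.7%. In all 48 fell in both lines, as did 18.5% of all genes. Odc1, which makes the first polyamine and is a classical MYC target, was at 400 and 410 CPM in apsMC706 EM, 132 and 134 in apsMC706 noEGF, 673 and 708 in CTO19 EM, and 209 and 191 in CTO19 noEGF. It was 3.24-fold lower over both lines (log2 fold change -1.69, SE 0.0706, edgeR adjusted p = 2e-05). Tcof1 and Pa2g4, both of ribosome production, were 1.96-fold and 1.95-fold lower, and Tmem97, a sterol-linked membrane protein, 1.86-fold lower.

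The exception was Sord, sorbitol dehydrogenase, at 3.84 and 3.51 CPM in apsMC706 EM, 17.1 and 17.0 in apsMC706 noEGF, 13.9 and 14.9 in CTO19 EM, and 17.3 and 18.2 in CTO19 noEGF. Its call over both lines (2.34-fold, edgeR adjusted p = 0.0304) was lost without any 1 apsMC706 library (0.0592 to 0.0955) and with the replicate block (0.0542). A further 5 targets passed in opposite directions in the lines (13.3% of all genes), and are named here after their values were seen. Cdk4 was lower in apsMC706 (-0.57) and higher in CTO19 (0.24), and Map3k6, Ppan, Pprc1 and Xpot were higher in apsMC706 (1.15, 0.11, 0.14 and 0.20) and lower in CTO19 (-0.36, -0.83, -0.54 and -0.45).

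Genes of dividing cells fell too, by more in apsMC706 than in CTO19. All 14 proliferation genes fell in each line, where 33.1% of all genes fell in apsMC706 and 33.3% in CTO19. Their summed level was 4799 and 4871 CPM in apsMC706 EM, 1866 and 1852 in apsMC706 noEGF, 3631 and 3486 in CTO19 EM, and 2254 and 2097 in CTO19 noEGF. Mki67, the usual mark of cycling cells, was at 951 and 960, 294 and 295, 860 and 677, and 481 and 452 CPM in the same order. The median log2 fold change of the 14 genes was -1.54 in apsMC706 and -0.73 in CTO19. The difference of the responses was above 0 and passed for all 14 (median 0.68), as for 30.4% of all genes. For the MYC-induced targets that difference passed for 32 lower and 10 higher in CTO19 (median -0.23), and 18 did not pass. Of all genes, 25.6% passed lower and 30.4% higher. The part of fewer dividing cells in the fall of the MYC-induced list was not tested. The list itself holds genes of replication and mitosis such as Mcm4, Mcm5, Plk1 and Plk4.

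**Figure D4:**
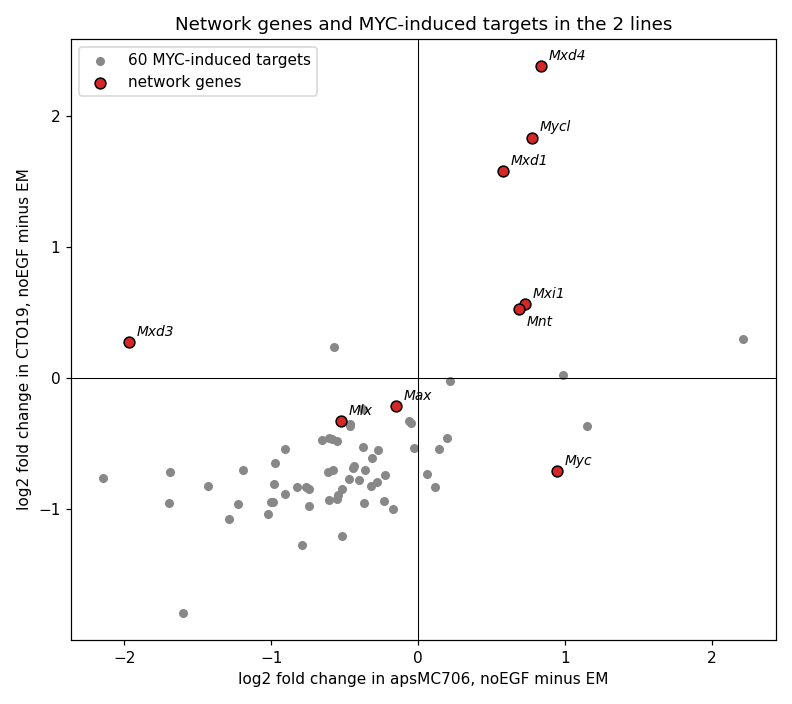
Log2 fold change of noEGF minus EM in apsMC706 (x axis) against CTO19 (y axis) for the 60 MYC-induced targets (grey) and 9 network genes (red, named). Most targets lie in the lower left, 48 of them called lower in both lines (18.5% of all genes). Myc lies at 0.94 and -0.71 and Mxd4 at 0.84 and 2.38.

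Of 10 genes that MYC represses, 5 rose and 1 fell over both lines (median 0.56), beside 25.5% and 23.3% of all genes. In apsMC706 7 rose and 1 fell (34.1% and 33.1% of all genes), and in CTO19 7 rose and 3 fell (34.7% and 33.3%). Named after their values were seen, Ndrg1 (27.6 to 71.4 CPM) and Itgb1 (498 to 614 CPM) rose in apsMC706 and fell in CTO19 (26.9 to 20.3 and 884 to 558 CPM, group means in EM and noEGF), and Cdkn1a did the reverse (log2 fold changes of -0.39 and 0.57). Ndrg2, a growth-restraining gene, was at 10.2 and 9.86 CPM in apsMC706 EM, 30.1 and 32.5 in apsMC706 noEGF, 3.97 and 4.72 in CTO19 EM, and 12.3 and 13.6 in CTO19 noEGF (3.05-fold higher, edgeR adjusted p = 4.52e-05). Cdkn2b, an inhibitor of CDK4 and CDK6 that MYC represses through MIZ1, was 1.55-fold, Thbs1 1.89-fold and Cebpa 2.02-fold higher. Gas1, at 0 counts in apsMC706, went from 0.629 to 0.194 CPM in CTO19, and its call over both lines (adjusted p = 0.0225) was lost with the DESeq2 test (0.131), with the replicate block (0.0593), and without CTO19 EM replicate 1 (0.0961) or CTO19 noEGF replicate 1 (0.103) or 2 (0.0978).

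Of 9 targets of the MLX partners MondoA and ChREBP that were tested, 6 rose and none fell over both lines (median 1.57, all genes 0.03), beside 25.5% of all genes that rose. All 9 rose in apsMC706 (median 1.89, 34.1% of all genes rose) and 4 in CTO19 (median 0.37, 34.7%). For 7 the response was lower in CTO19 by the test of the difference (25.6% of all genes). Txnip, an inhibitor of glucose uptake and a standard MondoA target, was at 51.2 and 53.5 CPM in apsMC706 EM, 470 and 484 in apsMC706 noEGF, 34.1 and 35.0 in CTO19 EM, and 115 and 133 in CTO19 noEGF. The rise over both lines was 5.73-fold (2.52 on the log2 scale, SE 0.276, edgeR adjusted p = 0.000448), with responses that differed by -1.35 (CTO19 minus apsMC706, SE 0.0864, adjusted p = 4.76e-08). Tkfc was 1.55-fold higher. The pyruvate kinase gene Pklr and the hormone gene Fgf21 also passed, at group means of 0.0570 to 0.818 CPM and 0.0570 to 1.31 CPM.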

How the data were processed

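Poly(A)-selected RNA was sequenced in 8 libraries. Per the submitters' processing notes, the authors used STAR 2.7.0a and the mm10 build. How reads were counted, with which strand setting and annotation, is not given in the sources used here. Raw, whole-number counts for Ensembl genes were deposited. Of 32728 genes, 32680 matched GENCODE M21 by identifier, which gave names, positions and merged exon lengths. 

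The tests used edgeR 4.0.16 (R 4.3.3), on the 16719 genes that filterByExpr kept, with TMM scaling. Two-sided quasi-likelihood F-tests with robust moderation used a model of line and medium (5 residual degrees of freedom) for both lines together, and the 4 group means (4 residual degrees of freedom) for the other comparisons. The Benjamini-Hochberg adjustment ran over all 16719 genes, with a threshold of 0.05. SE is the log2 fold change over the root of F. Promoters came from RefSeq (GRCm38.p6).

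The members and lists were chosen with earlier results of these data known. Named beside the members were up to 4 genes per list and direction of smallest p over both lines (the 2 of smallest p where none passed), Mki67, the targeted genes and the 5 genes most like Myc, and 1 gene under this rule is not reported here. Alternatives were DESeq2 size factors, no filter on low counts, the Wald test of DESeq2 1.42.0, the replicate number as a block, a test against a fold of 1.5, and each library left out in turn. Precision is limited by 2 libraries per group, and floors cover counting error only.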

Additional observations from a re-analysis of the deposited data

Results flagged for a closer look

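The response to noEGF differed between the lines for 5 network genes by the test of the difference itself (CTO19 minus apsMC706, log2 scale, edgeR quasi-likelihood test, adjusted over all genes). Myc differed by -1.65 (adjusted p = 5.93e-11), rising in both apsMC706 noEGF libraries and falling in both of CTO19. Mxd3 differed by 2.24 (adjusted p = 1.29e-07), Mxd4 by 1.54 (1.74e-10), Mxd1 by 1.00 (9.66e-07) and Mycl by 1.06 (0.0336), the last with a call that most left-out libraries end. In all, 56.0% of tested genes passed this test. No group held enough libraries to test for a single library far from the rest.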

How the results depend on the processing

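Of 780 member values under the alternatives, 711 kept their direction and side of the threshold, 43 lost and 14 gained a call, and 12 changed sign. The test against a fold of 1.5, which asks for larger changes, called 2221 genes (1558 higher, 663 lower) and 3 members over both lines, 4331 genes and 5 members in apsMC706, 3641 genes and 4 members in CTO19, 3194 genes for the difference of the responses, and 5537 and 7293 genes between the lines in EM and noEGF. It called 19 MYC-induced targets lower over both lines, 21 in apsMC706 and 36 in CTO19. Sign changes were found only at values near 0 that had not passed. Myc over both lines was -0.11 and -0.10 without either apsMC706 EM library and -0.01 without either apsMC706 noEGF library. The highest such value was 0.4221, without CTO19 noEGF replicate 2. Mycn in apsMC706, at 0 counts, was -0.0136 with the replicate block. Mxd4 between the lines in noEGF was -0.049 with DESeq2 size factors and with the Wald test, -0.0754 with no filter, and -0.0931 to 0.0358 where a library was left out. Mlx there ran from -0.0101, without CTO19 noEGF replicate 1, to 0.1197. With libraries left out in turn, members called ran from 6 to 7 over both lines, 7 to 8 in apsMC706, 8 to 9 in CTO19 and 4 to 7 for the difference, where DESeq2 size factors gave 7 and no filter 6. The replicate numbers were not taken to pair the samples. Over 6 pairs of groups, correlations of replicate differences across genes were -0.00825 to 0.0485 (5 above 0), and 0.0199 to 0.175 (all above 0) among genes averaging 3 or more on the log2 CPM scale. With the replicate number as a block 6988 genes and 7 members passed over both lines, and among members the block changed the call of Mycn in CTO19 only.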

Other observations

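Over the 8 libraries, the genes whose log2 CPM most resembled that of Myc by Pearson correlation were Preb (0.998), Hgfac (0.997), Vegfa (0.996), Rps26 (0.995) and Pfkp (0.995), out of 9210 genes that averaged 3 or more on the log2 CPM scale. The 8 points share 2 lines and 2 media, so the correlation mostly describes the order of the 4 groups. Vegfa, a vessel growth factor, was at 29.6 and 30.1 CPM in apsMC706 EM, 126 and 127 in apsMC706 noEGF, 15.0 and 15.6 in CTO19 EM, and 3.85 and 3.40 in CTO19 noEGF. Pfkp, a phosphofructokinase of glycolysis, was at 152 and 153, 319 and 312, 108 and 107, and 52.8 and 52.3 CPM in the same order. Both lay higher without EGF in apsMC706 and lower in CTO19, as Myc did, which follows from choosing them by their likeness to Myc.

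Other factors of the same structural class, which bind E-box sequences without MAX, were counted in the same way. Over both lines 1 of 8 tested fell and none rose (23.3% and 25.5% of all genes). In apsMC706 4 fell and 1 rose (33.1% and 34.1% of all genes), and in CTO19 3 rose and 1 fell (34.7% and 33.3%). For 5 the responses differed, a share near that of all genes (56.0%). Named after their values were seen, Usf1 rose from 28.5 to 44.5 CPM in CTO19 and did not pass in apsMC706 (23.2 and 21.4 CPM), and Srebf1 fell from 157 to 108 CPM in apsMC706 and did not pass in CTO19 (133 and 138 CPM). Tfap4, a known MYC target, was at 26.1 and 29.6 CPM in apsMC706 EM, 21.3 and 20.9 in apsMC706 noEGF, 23.5 and 24.8 in CTO19 EM, and 16.9 and 16.7 in CTO19 noEGF (1.38-fold lower, edgeR adjusted p = 0.00148). It fell in both lines.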
